A study of Mus musculus with 6 samples.

Results

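The transcripts described here are long noncoding and imprinted RNAs of the mouse heart: 2900052N01Rik, Eprn, Neat1, Malat1, Meg3, Rian, H19, Kcnq1ot1 and Snhg11. They were followed on expression arrays of the left ventricular apex of mice that had lost the nuclear protein PTIP, the product of Paxip1. The genes were selected on earlier results of the same comparison, knockout against control, and every probe set annotated to exactly 1 of them was kept, whatever its value. This gave 36 of the 45037 tested probe sets, for 8 of the 18193 named genes. H19 has no such probe set, because its single entry on the array names a second gene, so no value is given for it. Since the comparison itself chose the genes, their differences between the groups are given as a description with standard errors. The number of their probe sets past the threshold used for the whole array is given, also under other settings. It supports nothing, since it comes from the same comparison.

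Both groups were female mice of 8 weeks, littermates of mixed C57B6 and B6129 background, and all 6 received tamoxifen at 20 mg/kg. The 3 PTIP KO mice carried a floxed and a null Paxip1 allele and a Cre recombinase fused to a modified estrogen receptor, driven by the alpha myosin heavy chain promoter, which is active in cardiomyocytes. The 3 PTIP+ mice, the controls, had 1 wild-type Paxip1 allele beside the floxed one, and no Cre is named for them, so the knockout differs from the control by the transgene and the null allele as well as by the induced deletion. The labels mention 5 days both as the length of treatment and as the time from injection to RNA collection. Values are log2 expression after RMA, a method that corrects background, normalises the arrays and combines the probes of a probe set, and each mouse has 1 array. Values of different probe sets do not give the relative abundance of 2 genes, because each set binds its target with its own strength. The apex was measured as bulk tissue, in which fewer cells of a type and less RNA per cell cannot be told apart.

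Long noncoding RNAs are transcripts without a known protein product, and several act in the nucleus where they are made. Neat1 is the scaffold of paraspeckles and Malat1 sits in nuclear speckles, the sites that store splicing factors. Meg3 and Rian are read from the maternal copy of the Dlk1-Dio3 imprinted domain, whose paternal copy expresses the growth regulator gene Dlk1. H19 is expressed from the maternal copy beside Igf2, and Kcnq1ot1 is a paternal antisense RNA that silences neighbouring genes such as Cdkn1c. Snhg11 hosts a small nucleolar RNA, and Eprn, also called Ephemeron, has been studied in embryonic stem cells. No function of 2900052N01Rik is given here.

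The 300-base windows around the annotated starts (250 bases before and 50 after, 5′ to 3′) are shown for the pair of genes with the largest differences and for Meg3, the imprinted member with the most probe sets. The sequences are RefSeq's, on the build GRCm38.p6. Capitals mark matches, on either strand, to 5 motifs. They are the TATA box, written TATAAA here, the CCAAT box, the E-box (CACGTG), the cAMP response element (TGACGTCA) and the GATA factor motif (GATAA).
2900052N01Rik, chr9:46913353-46913652, + strand: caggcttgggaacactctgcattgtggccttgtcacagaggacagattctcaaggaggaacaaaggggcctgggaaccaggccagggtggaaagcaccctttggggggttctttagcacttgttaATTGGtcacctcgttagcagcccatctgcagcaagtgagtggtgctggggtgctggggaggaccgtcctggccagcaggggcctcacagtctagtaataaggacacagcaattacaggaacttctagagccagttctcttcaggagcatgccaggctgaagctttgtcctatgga
Eprn, chr13:73347335-73347634, - strand: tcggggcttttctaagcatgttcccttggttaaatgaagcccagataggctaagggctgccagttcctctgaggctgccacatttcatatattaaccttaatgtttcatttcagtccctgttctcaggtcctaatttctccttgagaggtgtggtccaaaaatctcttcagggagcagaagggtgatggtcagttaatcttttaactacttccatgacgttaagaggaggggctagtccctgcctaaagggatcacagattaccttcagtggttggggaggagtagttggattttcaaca
Meg3, first of its 2 listed starts, chr12:109540746-109541045, + strand: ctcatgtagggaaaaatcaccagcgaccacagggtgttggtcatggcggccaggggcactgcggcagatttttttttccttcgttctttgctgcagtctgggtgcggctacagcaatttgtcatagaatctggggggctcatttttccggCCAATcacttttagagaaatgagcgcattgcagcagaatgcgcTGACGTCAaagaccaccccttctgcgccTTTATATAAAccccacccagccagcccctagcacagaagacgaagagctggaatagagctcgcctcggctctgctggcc

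The windows of 2900052N01Rik and Eprn each hold 2 CG dinucleotides, against a median of 7 over the 32851 windows in the table, and 14.1% of those windows hold fewer. The Meg3 window holds 13. In 2900052N01Rik the only match is CCAAT on the minus strand, beginning at position -125 from the start, and 37.4% of all windows hold that motif. Eprn has no match to any of the 5 motifs in this window. The Meg3 window has the TATA box on both strands, in overlapping positions from -25 and -29, a CCAAT box from -100 and a cAMP response element from -57. The TATA box occurs in 13.6% of all windows, the cAMP response element in 1.79%, the GATA motif in 25.4% and the E-box in 7.15%. Of the other members with a window, Kcnq1ot1 has 3 CCAAT matches and 9 CG, Rian has 1 GATA motif and 0 CG, and Snhg11 and Malat1 have no match and hold 21 and 10 CG. The second Meg3 start has no match and 1 CG. These are matches of letters, not sites of binding.

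In the knockout ventricles 2900052N01Rik read far above the controls and Eprn far below, while Neat1, Malat1, Meg3 and Rian lay in the same range in both groups. The difference was 3.91 for 2900052N01Rik and -2.37 for Eprn on their brightest probe sets. Across the 32 probe sets of the 6 other genes the differences ran from -0.69 to 0.62, with a median of -0.08 beside 0.01 for all tested probe sets. Of these 32, 22 were lower in the knockouts and 10 higher, while 48.5% of all tested probe sets were lower. Many of the 32 are repeated readings of 1 gene, with 11 for Meg3, 7 for Malat1 and 6 for Kcnq1ot1.

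**Figure D1:**
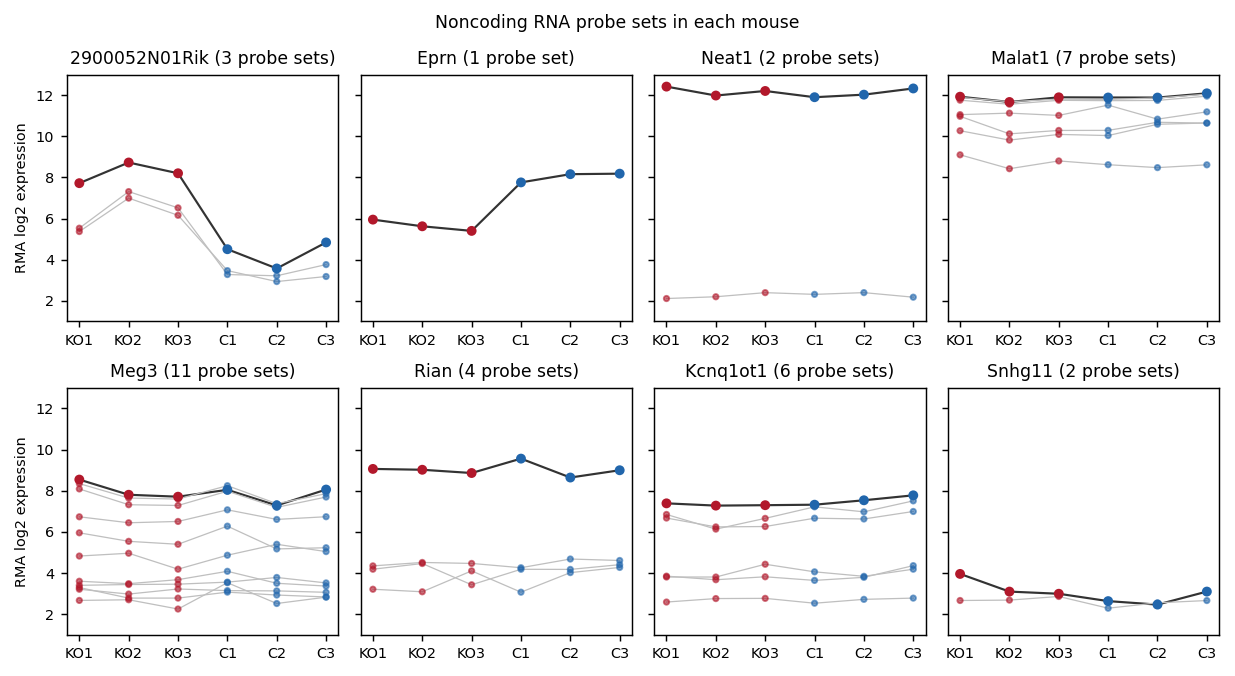
RMA log2 expression (vertical axis) of every probe set of the 8 measured genes in the 3 knockout mice (KO1 to KO3, red) and the 3 controls (C1 to C3, blue). Lines only join the values of 1 probe set, and the dark line is the probe set with the highest mean. All 3 probe sets of 2900052N01Rik are high in the knockout mice, Eprn is high in the controls, and the groups intermix on most others.

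2900052N01Rik, annotated as a long noncoding RNA gene on chromosome 9, was measured by 3 probe sets. On the brightest it read 7.72, 8.72 and 8.20 in knockouts 1 to 3 and 4.51, 3.58 and 4.84 in controls 1 to 3. The lowest knockout value thus stood well above the highest control value, and all 3 control values lay below 5.19, the median of all probe set means. The difference was 3.91 (SE 0.36, n = 3 each). No fold on the linear scale is given, because the control signal is dim. On the dimmest the knockout mice read 5.37, 6.99 and 6.16 and the controls 3.47, 2.94 and 3.19, a difference of 2.98 (SE 0.38). On the remaining one the knockout mice read 5.53, 7.31 and 6.52 and the controls 3.28, 3.22 and 3.76, a difference of 3.03 (SE 0.41). The 3 probe sets gave the same order within the knockout group, with mouse 2 highest and mouse 1 lowest, so the spread among knockout mice was shared by all of them. The 2 dimmer probe sets had the larger SD within the knockout group, 0.81 and 0.89 against 0.50. The control values were dim on all 3.

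Eprn was measured by a single probe set. It read 5.95, 5.63 and 5.40 in knockouts 1 to 3 and 7.76, 8.16 and 8.18 in controls 1 to 3. The groups were separated by a gap larger than the range within either group. The difference was -2.37 (SE 0.18, n = 3 each), a level 5.18-fold lower in the knockout mice, and 4 probe sets of the array fell further. Leaving out any 1 mouse gave differences between -2.52 and -2.24 for Eprn and between 3.54 and 4.17 for the brightest probe set of 2900052N01Rik.

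With limma and Benjamini-Hochberg adjustment over all probe sets, 3 of the 36 member probe sets passed an adjusted p of 0.05, 2 of 2900052N01Rik and that of Eprn. Over the whole array 86 probe sets passed (0.191%), 30 of them higher in the knockout mice (0.0666%) and 56 lower (0.124%). Because this comparison chose the genes, nothing is read from that count. The remaining 2900052N01Rik probe set, with a difference of 3.03, did not pass. Leaving out 1 mouse left between 0 and 2 of the 3 calls: 2 remained without control 3 (Eprn and the brightest of 2900052N01Rik), 1 without control 1 (Eprn), and none without control 2 or any knockout mouse. The groups did not overlap for 7 of the 36 probe sets, and 14.4% of all probe sets did not overlap. These 7 were the 3 of 2900052N01Rik, that of Eprn and 1 each of Meg3, Kcnq1ot1 and Snhg11.

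**Figure D2:**
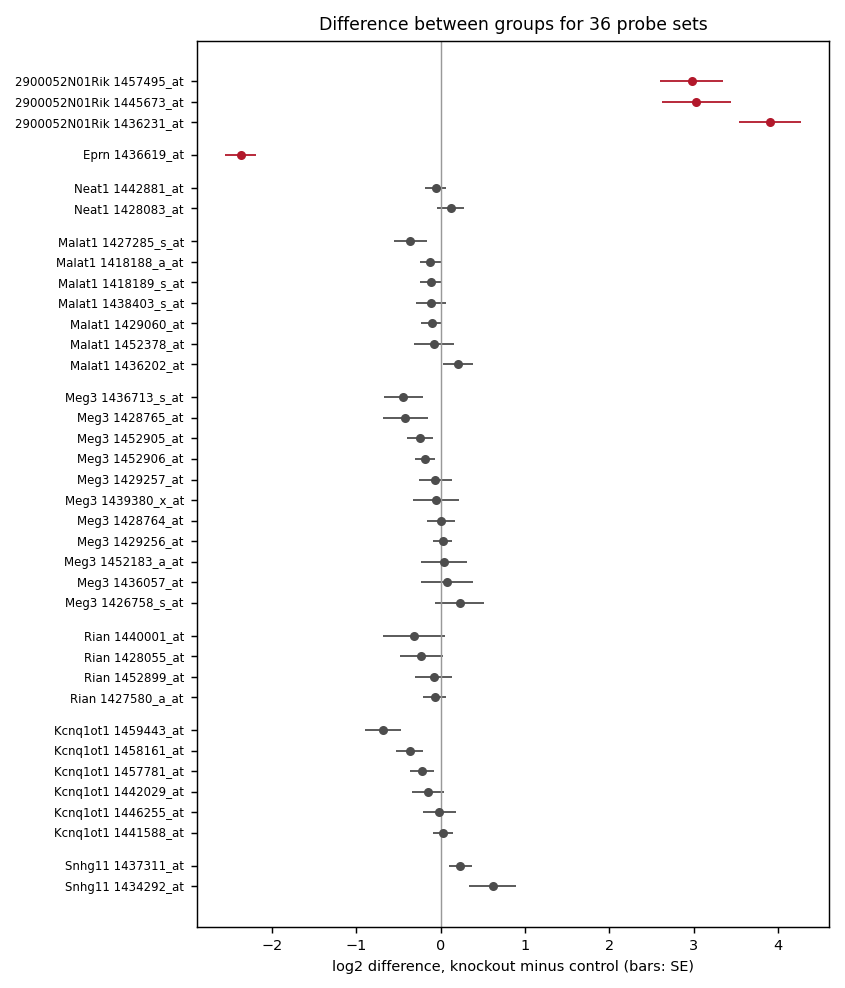
Log2 difference, knockout minus control (horizontal axis), for each of the 36 probe sets, with its standard error as a bar. The 4 red points belong to 2900052N01Rik (2.98 to 3.91) and Eprn (-2.37), and the grey points of the other 6 genes lie between -0.69 and 0.62.

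The measured genes beside 2900052N01Rik and Eprn showed no comparable difference. Cadm1, a cell adhesion molecule and the nearest measured gene on one side of 2900052N01Rik, read 7.78, 7.87 and 7.89 in the knockouts and 7.80, 7.51 and 7.88 in the controls, a difference of 0.11 (SE 0.13). On the other side, 4930448E22Rik was dim at 3.44, 2.91 and 3.52 against 3.15, 3.12 and 3.27, a difference of 0.11 (SE 0.17). Beside Eprn, Mrpl36, a mitochondrial ribosomal protein, differed by 0.04 (SE 0.10) and Lpcat1, an enzyme of phospholipid remodelling, by -0.08 (SE 0.13). In both pairs the groups overlapped. Over the 3 measured genes on each side of every member, H19 included, there were 42 different genes, of which 0 passed with limma over all probe sets and 3 had an unadjusted p under 0.05. Of the 45037 tested probe sets, 4083 had an unadjusted limma p under 0.05. The 42 genes had a median difference of 0.02, and 0.286% of all 18193 genes passed. The smallest p among them belonged to Ehbp1l1, near Neat1 and Malat1 (0.48, limma adjusted p = 0.215), then Wdr25 (0.41) and Wars (0.35), both before Meg3, and Irx2, a homeobox factor near Eprn (0.61). Another Wars probe set, not the one of highest mean that stands for the gene, differed by 0.52 (SE 0.10, limma adjusted p = 0.172). The order of genes comes from the RefSeq table of GRCm38.p6.

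**Figure D3:**
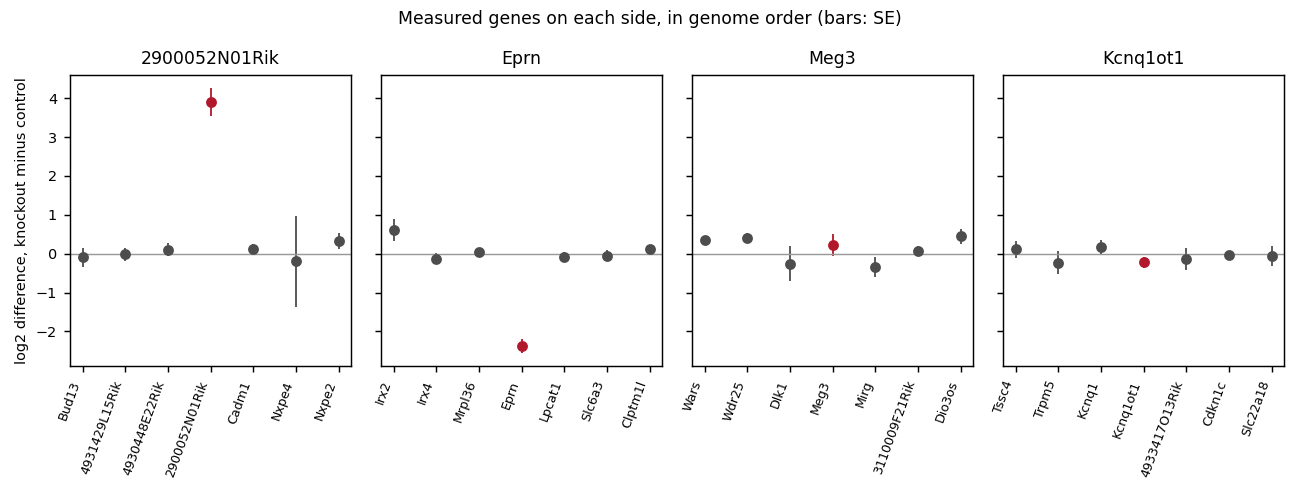
Log2 difference, knockout minus control (vertical axis, bars are standard errors), for 4 noncoding RNA genes (red) and the 3 nearest measured genes on each side in genome order (grey), not to scale in distance. 2900052N01Rik at 3.91 and Eprn at -2.37 stand apart from all of their measured neighbours, whose differences run from -0.20 to 0.61.

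Neat1 and Malat1, whose genes are neighbours on chromosome 19, differed little between the groups. On its bright probe set Neat1 read 12.41, 11.98 and 12.20 in the knockouts and 11.90, 12.02 and 12.32 in the controls. The groups overlapped, and the difference was 0.12 (SE 0.16). The other Neat1 probe set was near the lower end of the scale at 2.11 to 2.40 in all mice (difference -0.06, SE 0.12). Neat1 has a short and a long isoform that share their 5′ end, and which of them each probe set reads was not examined.

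Malat1 was bright on all 7 of its probe sets, with values from 8.42 to 12.09. On the brightest it read 11.92, 11.67 and 11.89 in the knockouts and 11.88, 11.88 and 12.09 in the controls, a difference of -0.12 (SE 0.12). Of the 7, 6 were lower in the knockouts and 1 was higher, with differences between -0.36 and 0.21. The lowest was on a probe set that read 10.27, 9.81 and 10.09 against 10.03, 10.58 and 10.65. All 7 Malat1 probe sets overlapped between the groups, and their mean differed by -0.10 (SE 0.12).

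Meg3 had 11 probe sets, 5 of them above the median of all means, and 6 were lower and 5 higher in the knockout mice. The brightest read 8.54, 7.80 and 7.71 in the knockouts and 8.04, 7.28 and 8.06 in the controls, a difference of 0.22 (SE 0.29). It was -0.04 without knockout 1, -0.03 without control 2 and -0.09 with knockout 3 and the controls alone. The second brightest read 8.35, 7.64 and 7.59 against 8.25, 7.37 and 7.86, a difference of 0.04 (SE 0.28). The spread among mice of 1 group was thus larger than the difference between the groups. Over all 11 the differences ran from -0.44 to 0.22, with a mean over probe sets of -0.10 (SE 0.16). The only Meg3 probe set without overlap was dim, at 3.40 to 3.46 against 3.52 to 3.78.

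Knockout 1 had the highest Meg3 value of its group on all 5 bright probe sets, control 2 the lowest of its group on all 5, and control 1 the highest of its group on 4. Rian, the next noncoding RNA of the domain and a host of small nucleolar RNAs, read 9.06, 9.02 and 8.86 in the knockouts and 9.56, 8.64 and 8.99 in the controls on its bright probe set, a difference of -0.09 (SE 0.22). Control 1 was again the highest and control 2 the lowest of all 6. The 3 other Rian probe sets were dim, at 3.07 to 4.68, with differences of -0.32, -0.23 and -0.07. Mirg, a host of microRNAs in the same domain, was dim at 3.81, 4.16 and 4.47 against 4.99, 4.29 and 4.20, again highest in control 1. Dlk1, the protein-coding gene expressed from the paternal copy, read 5.87, 6.19 and 4.92 against 6.70, 5.13 and 5.91, a difference of -0.26 (SE 0.45, limma adjusted p = 0.925). A sign of RNA quality, the signal at the 3′ end of actin minus that at its 5′ end, stood at 1.51, 1.45 and 1.64 in the knockouts and 1.85, 1.17 and 1.38 in the controls, so control 1 was highest and control 2 lowest in that measure too. Knockout 3 was the highest of its group in that measure and for Mirg. It was the lowest of its group for Dlk1, the bright Rian probe set and the brightest Meg3 probe set. The part of RNA quality in the order of the mice was not tested.

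**Figure D4:**
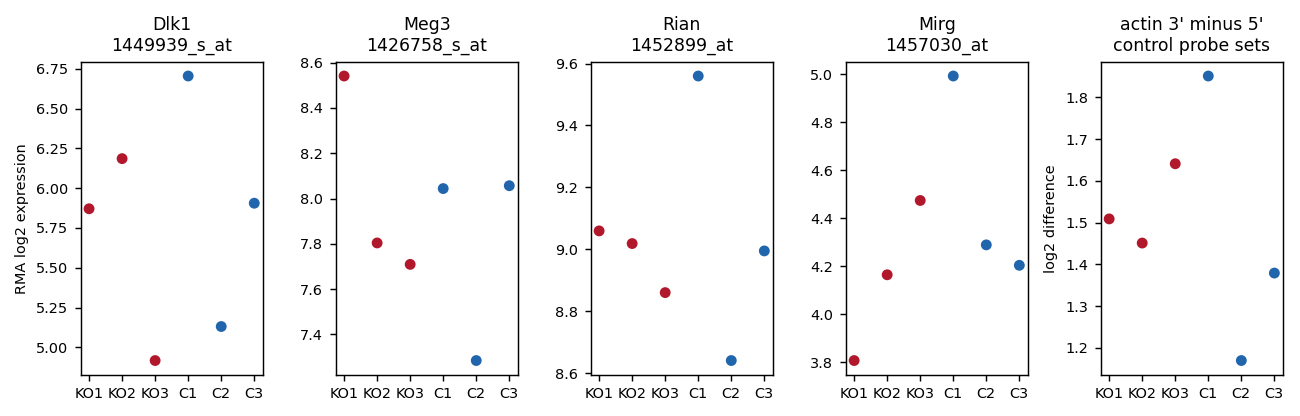
RMA log2 expression (vertical axes, each with its own range) of the brightest probe sets of Dlk1, Meg3, Rian and Mirg in each mouse, with the 3′ minus 5′ actin difference at the right. Red points are knockout mice and blue points controls; control 1 is the highest of all mice for Dlk1 (6.70), Rian (9.56), Mirg (4.99) and the actin difference (1.85).

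Kcnq1ot1 had 6 probe sets, of which 5 were lower in the knockouts and 3 lay above the median of all means. The one with the largest difference read 6.85, 6.13 and 6.66 in the knockouts and 7.22, 6.97 and 7.51 in the controls. All knockout values were below all control values, and the difference was -0.69 (SE 0.22), a level 1.61-fold lower. On another the values were 6.67, 6.24 and 6.26 against 6.66, 6.63 and 6.99, a difference of -0.37 (SE 0.16), with knockout 1 above 2 controls. The brightest read 7.39, 7.28 and 7.30 against 7.32, 7.54 and 7.78, a difference of -0.22 (SE 0.14). The 3 dim probe sets differed by -0.15, -0.02 and 0.03, and the second of these was 0.03 after median centring of the arrays. RefSeq gives this gene a span of 83437 bases, against 2720 for Eprn and 13764 for 2900052N01Rik, and the place of each probe set within it was not examined.

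Cdkn1c, Kcnq1 and Igf2, 3 genes near Kcnq1ot1 or H19, were close in both groups. Cdkn1c, a cell cycle inhibitor expressed from the maternal copy, read 7.91, 7.90 and 7.96 in the knockouts and 8.03, 7.94 and 7.93 in the controls, a difference of -0.04 (SE 0.10, limma adjusted p = 0.947). Kcnq1, the potassium channel gene within which Kcnq1ot1 lies in antisense, read 10.43, 9.96 and 9.98 against 9.66, 10.09 and 10.09, a difference of 0.18 (SE 0.18, limma adjusted p = 0.857). Igf2, the paternally expressed growth factor beside H19, read 9.23, 9.52 and 9.52 against 9.68, 9.21 and 9.29, a difference of 0.03 (SE 0.16, limma adjusted p = 0.979). The groups overlapped for all 3 genes. Among the 3 nearest measured genes on each side of Kcnq1ot1 and of H19, differences ran from -0.23 (Trpm5, dim) to 0.36 (Igf2os, dim). Osbpl5, an imprinted gene not among these neighbours, differed by 0.42 (SE 0.12), with no overlap between the groups.

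Snhg11 was dim on both probe sets. On one it read 3.96, 3.10 and 2.99 in the knockouts and 2.64, 2.47 and 3.10 in the controls, a difference of 0.62 (SE 0.28), and knockout 1 alone stood clearly above the rest. On the other it read 2.67, 2.68 and 2.86 against 2.29, 2.55 and 2.66, with no overlap by a narrow margin and a difference of 0.23 (SE 0.13). The 8 measured genes of a list of Schwann cell and neuron markers summed to 677 to 771 on the linear scale in the knockouts and 589 to 621 in the controls. Of the 8, 6 were higher in the knockouts and 2 lower, with differences from -0.38 to 0.54. Snap25, Tubb3 and Th of that list lay below the median of all probe set means. None of the 8 passed over all probe sets, and 3 had an unadjusted limma p under 0.05. Over the whole array 4083 of the 45037 tested probe sets did. The part of these markers in the Snhg11 values was not tested.

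Related genes from lists set for this comparison showed 1 call among 165 measured genes, that of Slc38a4, while 0.286% of all genes passed. Of 35 other long noncoding RNAs and small nucleolar RNA hosts, 0 passed with limma and 4 had an unadjusted p under 0.05: Dlx6os1 (0.46, dim), Snhg10 (-0.36), Firre (-0.36), a nuclear RNA of the X chromosome, and Dancr (-0.59). Their median was -0.05, beside 0.02 for all genes. Of the 45037 tested probe sets, 4083 had an unadjusted limma p under 0.05. Of 58 imprinted protein-coding genes, 29 were lower and 29 higher in the knockout mice, with a median of -0.01. With limma 1 of them passed, in the lower direction, and 6 had an unadjusted p under 0.05. Slc38a4, an amino acid transporter expressed from the paternal copy, read 6.95, 7.20 and 7.08 in the knockouts and 8.66, 8.55 and 8.35 in the controls, a difference of -1.44 (SE 0.13, limma adjusted p = 0.0228). Its second probe set read 4.95, 5.27 and 5.24 against 7.55, 7.26 and 6.99, a fall of the same direction (-2.11, limma adjusted p = 0.0184). Without 1 mouse the limma adjusted p of the brighter probe set lay between 0.0473 and 0.121, and it passed only without control 3. It was 0.753 with knockout 3 and the controls alone. Osbpl5 (0.42), Herc3 (-0.54), Slc22a2 (0.36, dim) and Snrpn (0.40, dim) had the next smallest p and did not pass. Rtl1 and Dio3 of the Dlk1-Dio3 domain are not analysed here.

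**Figure D5:**
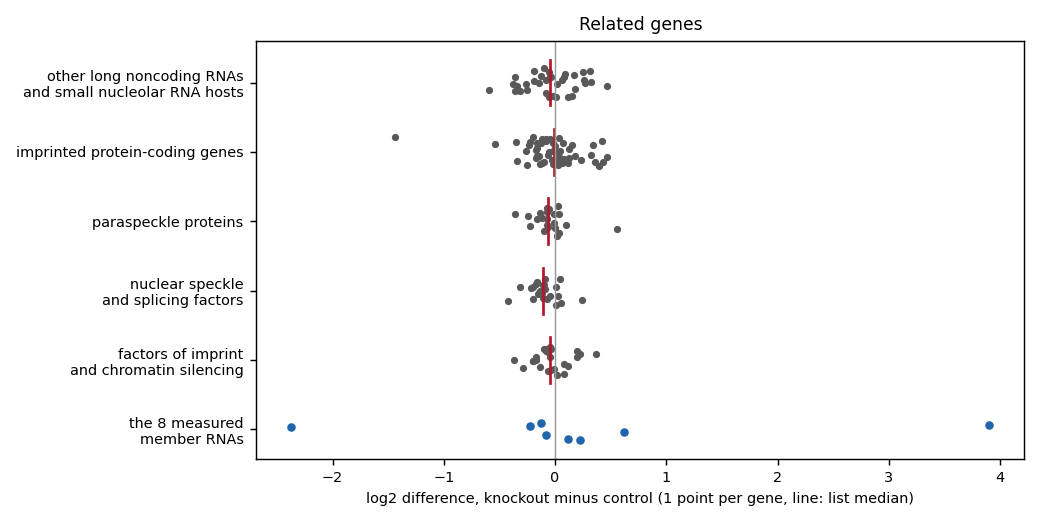
Log2 difference, knockout minus control (horizontal axis), for each gene of 5 lists (grey, list median as a red line) and for the brightest probe set of each of the 8 measured noncoding RNAs (blue). The isolated grey point at -1.44 is Slc38a4, and the outermost blue points are Eprn at -2.37 and 2900052N01Rik at 3.91.

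Genes of paraspeckles, whose scaffold is Neat1, and of nuclear speckles, where Malat1 sits, had small differences. Of 22 paraspeckle proteins, 0 passed with limma and 1 had an unadjusted p under 0.05, Zc3h6 (0.55), and the median was -0.07. In the knockout mice 15 of the 22 were lower. Pspc1, a core paraspeckle protein, differed by -0.16 (SE 0.15), Tardbp, an RNA-binding protein, by -0.23, and Rbm12 by -0.36. Of 25 nuclear speckle and splicing genes, 0 passed with limma and 2 had an unadjusted p under 0.05. In this list 19 were lower, with a median of -0.11, while 48.5% of all tested probe sets were lower. The splicing factors Srsf10 (-0.42) and Srsf2 (-0.31) had the smallest p, followed by Prpf8 (0.24) and Son (-0.20). Of 25 factors of imprinting and chromatin silencing, 0 passed with limma and 1 had an unadjusted p under 0.05, Ezh1 (0.37), a Polycomb methyltransferase. Here 17 were lower, with a median of -0.04. Uhrf1, which guides maintenance of DNA methylation, differed by -0.29, Zfp57, which protects imprints, by -0.37 and Dnmt3l, which was dim, by 0.22.

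Profiles over the 6 mice were compared by the mean absolute distance on the log2 scale after centring each on its own mean. Only genes with a mean level over 5.19, the median given earlier, were searched. Dimmer genes could therefore not appear as nearest, whatever their profile. The nearest genes to Eprn were Alox5 (0.25), Ddah1 (0.29) and Gm19277 (0.29), all 3 lower in every knockout mouse than in any control. Among the genes searched, the nearest to 2900052N01Rik were Gm15743 (0.68), Phactr3 (0.73) and 1500002F19Rik (0.87). Gm15743 read 8.70, 8.61 and 8.48 in the knockouts and 6.04, 5.13 and 6.96 in the controls. The nearest to Meg3 were Tmc4 (0.11), Padi2 (0.12) and Btbd9 (0.13), and none of these 3 separated the groups. For Eprn and 2900052N01Rik such a distance mainly follows the difference between the groups, which chose both genes.

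Other measures of the samples bear on all these values. The arrays correlated between 0.989 and 0.995 over all probe sets. Paxip1, on the probe set with the largest difference, read 6.34, 5.90 and 5.90 in the knockouts and 7.80, 7.71 and 8.10 in the controls, a difference of -1.83. Its 3 other probe sets differed by -1.58, -1.54 and -0.95, and the last, which has the highest mean, did not pass (limma adjusted p = 0.106). All 10 cardiomyocyte markers lay above the median level, and their summed linear level was 109270 to 112769 in the knockouts and 112170 to 112735 in the controls. The sums of the 10 endothelial, 10 fibroblast and 10 pericyte and smooth muscle markers overlapped between the groups, as did those of 7 lymphocyte, 6 adipocyte and 4 erythroid markers, with all measured lymphocyte and adipocyte markers below the median level. Of 8 mesothelial markers 7 were lower in the knockout mice, with a median of -0.66, 0 passing with limma and 0 at an unadjusted p under 0.05, and their sum spread widely, from 357 to 1317 against 646 to 1212, with Upk1b and Lrrn4 below the median level. All 10 macrophage markers were lower in the knockout mice, none passed over all probe sets (4 had an unadjusted limma p under 0.05), and their sum was 5733 to 8176 against 8270.5 to 9159, with all 10 above the median level. All 8 skeletal muscle markers were lower as well, 0 passing with limma and 2 at an unadjusted p under 0.05, with sums of 4931 to 6083 against 6519 to 7334, and Myh4, Myh2 and Actn3 below the median level. Over the whole array, 4083 of the 45037 tested probe sets had an unadjusted limma p under 0.05. The part of these cell type differences in the values of Eprn, Kcnq1ot1 and the other RNAs was not tested.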

How the data were processed

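Arrays of the left ventricular apex were made from 6 mice, 3 PTIP KO and 3 PTIP+, grouped by the titles in the labels. The deposited values are log2 expression per probe set, made by the authors with RMA per the submitters' processing notes; no RMA version is known here, and base 2 was taken from the values, which run from 1.36 to 14.3. RNA was amplified with the NuGen Ovation Biotin kit, per the labels. RMA sets all arrays to 1 distribution, which hides a change in total RNA.

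Of 45101 probe sets, 64 controls were left out and no filter on low values was applied before the test. The search for nearest profiles left out dim genes. Names came from the platform annotation (1 gene for 34945 tested probe sets, several for 932, none listed for 9160), with symbols updated through the Entrez identifier (34741 found) in RefSeq's table of GRCm38.p6. Each gene stands on its probe set of highest mean. Promoter windows were found for 7 members.

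The test was limma's (version 3.58.1, R 4.3.3, lmFit then eBayes, two-sided, no covariates, median 7.39 degrees of freedom) over all probe sets, Benjamini-Hochberg adjusted, and checked on simulated data. For arrays, the number of mice limits precision (median SE 0.147). The labels number the mice but do not pair them. The members and lists were chosen with earlier results of these data known. Named were all member probe sets, Paxip1, called genes and up to 4 others of the smallest p per list and among neighbours, fixed imprinted genes, the nearest neighbours of 2900052N01Rik and Eprn, and the 3 nearest profiles of 3 members.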

Additional observations from a re-analysis of the deposited data

How the results depend on the processing

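The differences of 2900052N01Rik, Eprn and Snhg11 kept their sign on every probe set in the 10 settings that can move a difference (leaving out each mouse, array weights, median centring, renewed quantile normalisation, and 4 arrays alone, knockout 3 and the controls, whose description numbers begin alike). Of the 36 member probe sets, 17 turned sign in at least 1 of them: 7 of Meg3, 4 of Rian, 3 of Kcnq1ot1, 2 of Malat1 and 1 of Neat1. With the 4 arrays 8 turned, 5 of them of Meg3, and 5 moved by more than 1 SD between mice. Averaged over its probe sets, 2900052N01Rik differed by 3.31, and Meg3 by -0.10 in place of 0.22. Counts of calls moved more. Over all probe sets 86 passed in the reported limma fit, 204 with array weights, 185 with a variance trend, 196 at an adjusted p under 0.1, 51 with a robust prior, and between 0 and 21 without 1 mouse. With the replicate number as a block, 0 passed (3392 at an unadjusted p under 0.05), and with the 4 arrays 0 passed (2348). In both, 0 of the 36 member probe sets and 0 of the 165 listed genes passed. Same-numbered mice did not deviate together (correlations -0.15, -0.08 and -0.01), so the numbers give no pairing. Without 1 mouse, 0 to 2 member probe sets passed, 19 to 26 of the 36 were lower in the knockout mice (23 in the reported fit), and 0 to 1 listed genes passed. Neighbour genes gave 0 calls in every setting, with 5 on each side too. In the 4-array fit knockout 3 is alone and is assumed to vary like the controls. Signal near the lower end of the scale limits 2900052N01Rik in the controls, Snhg11 and the dim probe sets of Meg3, Rian and Kcnq1ot1.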

Other observations

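Among the genes near 2900052N01Rik, Nxpe4, chosen after its values were seen, read 7.59 in knockout 1 and 8.07 in control 1 but 4.87, 4.15, 4.21 and 4.92 in the other mice, and its groups differed by -0.20 (SE 1.17). The 3 knockout values of 2900052N01Rik spanned from 7.72 to 8.72 on its brightest probe set and from 5.37 to 6.99 on its dimmest. Phactr3, another gene that was high in every knockout mouse, spanned from 7.69 to 7.82 on its brightest probe set. Dio3os, a noncoding RNA at the far end of the Dlk1-Dio3 domain also chosen after its values were seen, was dim at 3.62, 3.33 and 3.05 in the knockouts and 3.17, 2.56 and 2.93 in the controls.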
